A study of Drosophila melanogaster with 6 samples.

Results

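Ecdysone, the steroid hormone of insects, acts through a heterodimer of the nuclear receptors EcR and Ultraspiracle (usp). The genes described here are this receptor pair, the early response genes Eip75B, Eip74EF and br, the later acting ftz-f1, and the gut and metabolic receptors Hnf4, ERR and Hr96. The set was defined by gene name, with earlier results of these data known, and makes up 9 of the 17321 genes and 12 of the 19674 transcript rows in the table. Each gene was read from its transcript row with the highest mean.

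The libraries came from enteroblasts (EBs), the cells between the intestinal stem cell and the absorptive enterocyte, sorted by fluorescence from the midgut of adult Drosophila melanogaster females. The control EB group (n = 3) is labelled wild-type, while the methods of the study describe its flies as heterozygous for Sox21a (Sox21a/+). The Sox21a EB group (n = 3) came from homozygous Sox21a mutants, whose CRISPR alleles carry a small frameshifting deletion in the part that encodes the DNA-binding HMG domain of this SOX transcription factor. Flies of both groups were 16 to 18 days old, were kept at 25 °C and carried Su(H)GBE-Gal4 with UAS-CD8::GFP, so that cells of the anterior midgut were sorted for the activity of a Notch-responsive driver, and each replicate pooled many guts. The comparison asks how EBs that lack functional Sox21a differ in expression from control EBs.

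Ligand-bound EcR/usp switches on a small set of early genes, several of which encode transcription factors that in turn control later genes. Eip75B is a haem-binding nuclear receptor that represses transcription, Eip74EF is an ETS-domain factor and br encodes the Broad zinc finger factors. ftz-f1 encodes a nuclear receptor that acts after an ecdysone pulse has declined. In adult flies ecdysone signalling is known in the ovary and the midgut, where it acts in the response of progenitors to mating. Hnf4 is known in flies for the use of stored lipid, ERR for the switch to glycolysis in larval and adult carbohydrate metabolism, and Hr96 for sterol and triglyceride balance in the midgut.

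Values are reads in the exons of a transcript divided by the size factor of the library, and the total per library, counted in multiples of the smallest step between values, ranged from 37286049 to 45955837. Sox21a itself was read at 16080 ± 1718 in control and 16065 ± 2566 in Sox21a EBs (SD, n = 3 each). The alleles are small deletions, and this level does not tell the genotypes apart. The cause of the like levels was not tested. Among the controls, replicate 1 was the odd library: over tested transcripts its absolute log2 difference from the mean of controls 2 and 3 had a median of 0.34, against 0.21 between those 2. With the size factors of the authors the median log2 fold change over all tested transcripts was 0.21, and after the libraries were rescaled using only transcripts whose mean reached 100 it was 0.01. A change is therefore given with its value after this rescaling where the call differs. Of 9571 genes tested with limma at a Benjamini-Hochberg adjusted p under 0.05, 2316 (24.2%) were higher and 977 (10.2%) lower in Sox21a EBs, and with the rescaled libraries these counts were 1639 (17.1%) and 1453 (15.2%).

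Among the 9 genes, Eip74EF fell 2.08-fold in Sox21a EBs, and no other gene passed the threshold in either direction. Thus 1 of 9 was called lower, against 10.2% of all genes, and 0 of 9 higher, against 24.2%. At an unadjusted p under 0.05, limma gave 2 genes higher (br and Hnf4) and 4 lower (EcR, Eip75B, Eip74EF and ERR). The share of all genes at this unadjusted threshold was not counted. With the replicate numbers as a block, 1 gene (Hnf4) was called higher and 3 (EcR, Eip75B and Eip74EF) lower. Of all 9571 genes tested, 2489 were higher and 1038 lower in that fit. In the rescaled libraries 5 were called lower (EcR, usp, Eip75B, Eip74EF and ERR) and 0 higher, against the 15.2% and 17.1% of all genes under that scaling. The median log2 fold change of the 9 genes was -0.24, against 0.24 over all genes tested, and 6 of the 9 lay below the latter value. All 3 Sox21a libraries lay below all 3 controls for 4 genes (EcR, usp, Eip74EF and ERR), as they did for 15.2% of all genes, and above them for 2 (br and Hnf4), as for 35.8% of all genes. With 9 genes these shares are a description only.

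**Figure D1:**
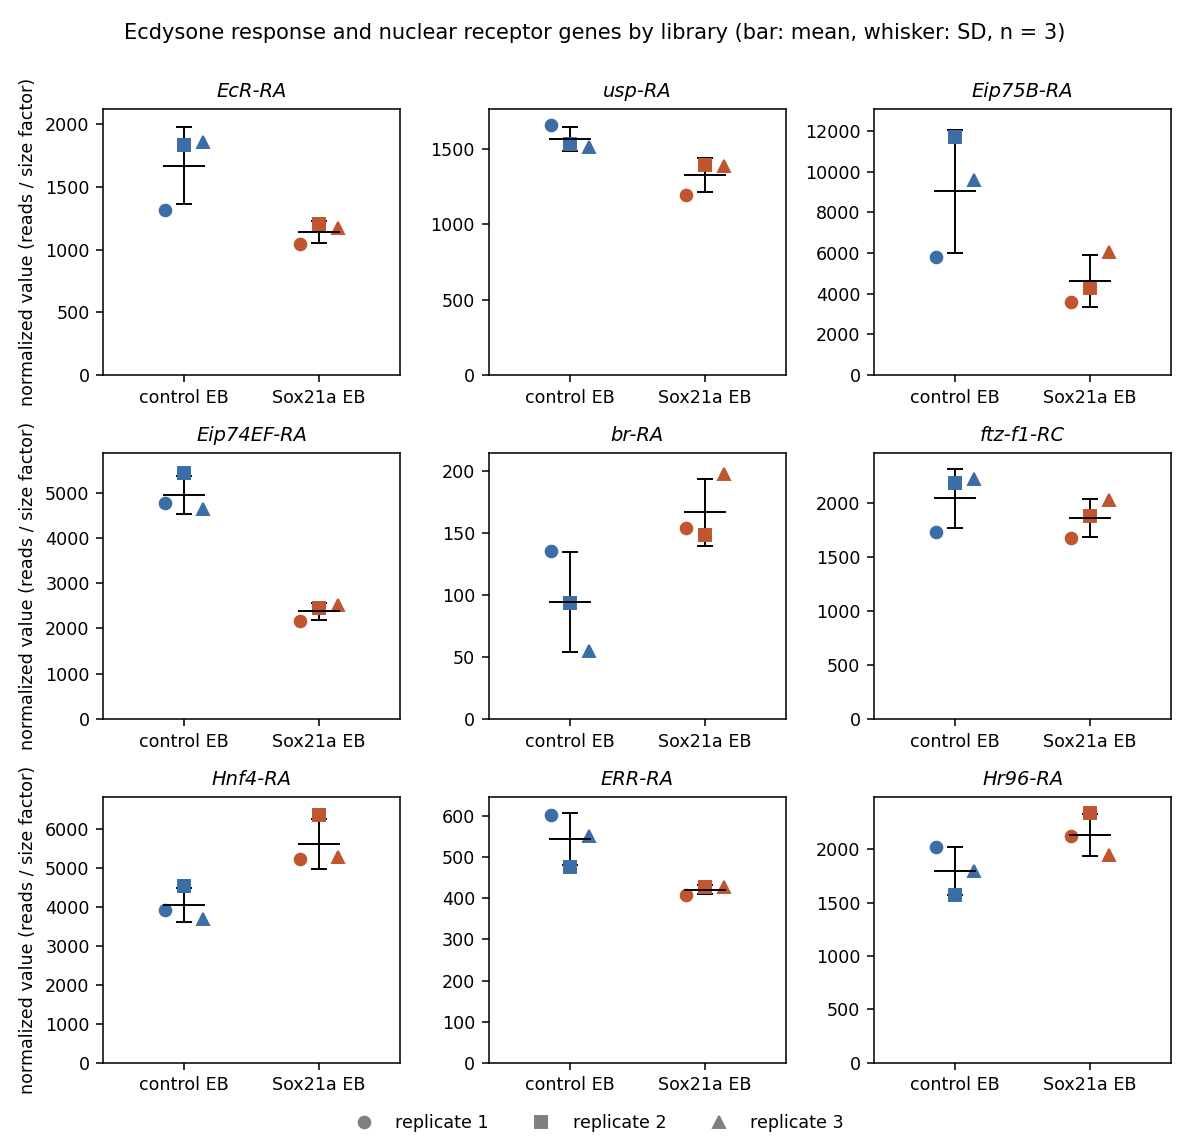
Normalized values (reads divided by the size factor, linear axis from 0) of the 9 genes in each library, with control EB in blue, Sox21a EB in orange, bars for the mean and whiskers for the SD (n = 3). The Eip74EF values lie between 4637 and 5437 in control EBs and between 2172 and 2517 in Sox21a EBs, while those of Hr96 and ftz-f1 overlap.

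EcR, the ecdysone-binding subunit, lies on chromosome arm 2R (6087873 to 6169087, minus strand, Drosophila genome release 6), where 6 transcripts are annotated, and the table holds 1 of them, EcR-RA. Its normalized values were 1313, 1835 and 1855 in the controls and 1041, 1207 and 1170 in Sox21a EBs. The groups did not overlap, although control replicate 1 lay nearer to the Sox21a libraries than to the other controls. The mean was 1668 ± 307.5 in control and 1139 ± 87.1 in Sox21a EBs, a log2 fold change of -0.53 (SE 0.19), which missed the threshold (limma adjusted p = 0.062). It passed with the replicate block (adjusted p = 0.042), after rescaling (log2 fold change -0.73, adjusted p = 0.031) and in 1 of the 6 fits that left out a library, the one without control replicate 1 (log2 fold change -0.70, adjusted p = 0.011). The other 5 gave adjusted p values from 0.12 to 0.18 and log2 fold changes from -0.58 to -0.45.

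usp, the fly RXR and the obligate partner of EcR, lies on the X chromosome (2038798 to 2042311, minus strand) with 2 annotated transcripts, of which the table holds the single-exon usp-RA (2038798 to 2041312). Its values were 1661, 1535 and 1513 in control and 1199, 1398 and 1389 in Sox21a EBs. Every Sox21a value lay below every control value. The log2 fold change was -0.24 (SE 0.15, limma adjusted p = 0.23). After rescaling it was -0.44 with an adjusted p of 0.042, and with both the rescaling and the replicate block the adjusted p was 0.054. Exons of usp overlap those of Actn on the same strand and CG4313 on the opposite strand, and the strandedness of the counting was not given in the sources used here, so a part of these reads may belong to the neighbours.

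The ratio of EcR to usp per kb of transcript, in which the scaling of a library cancels, was 0.389, 0.589 and 0.603 in control and 0.427, 0.425 and 0.415 in Sox21a EBs. The 3 Sox21a ratios lay close together and inside the range of the controls, whose lowest ratio was that of replicate 1. A difference in the proportion of the 2 subunits was thus not shown.

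Eip74EF, the ETS factor of the early response, was the gene with the largest fall of the set. It lies on 3L (17558672 to 17619325, minus strand), 3.48 Mb from Sox21a on the same arm, and the row held by the table, Eip74EF-RA, starts at the distal of its annotated promoters at 17619325. The values were 4769, 5437 and 4637 in control and 2172, 2440 and 2517 in Sox21a EBs. The lowest control was thus well above the highest Sox21a library, and within each group the values spread by a coefficient of variation of 8.67% and 7.62%. The mean fell from 4948 ± 429 to 2376 ± 181, a log2 fold change of -1.06 (SE 0.15, limma adjusted p = 0.0022). The gene was called in all 6 fits that left out 1 library, with log2 fold changes from -1.10 to -0.99, and after rescaling the log2 fold change was -1.25 (adjusted p = 0.0018). Of all genes tested, 6.26% had a larger fall, and 572 (5.98%) were called lower by at least 2-fold, as was Eip74EF, where 1212 (12.7%) were called higher by at least 2-fold, none of them in the set of 9.

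Eip75B, the haem-binding repressor, is also on 3L (17950953 to 18064696, minus strand, 3.90 Mb from Sox21a). Of its 7 annotated transcripts the table holds Eip75B-RA. The values were 5785, 11728 and 9567 in control and 3571, 4291 and 6064 in Sox21a EBs. The spread was wide in both groups (coefficients of variation of 33.3% and 27.6%) and the groups overlapped, with Sox21a replicate 3 above control replicate 1. The means were 9027 ± 3008 and 4642 ± 1283, a 1.94-fold difference with a log2 fold change of -0.93 (SE 0.31, limma adjusted p = 0.053). The call depended on the fit. The adjusted p was 0.029 with the replicate block, 0.037 after rescaling and 0.012 without control replicate 1, where the log2 fold change was -1.23. The other 5 fits that left out a library did not call it, with adjusted p values from 0.050 to 0.16 and a log2 fold change as small as -0.72 without control replicate 2.

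The ratio of Eip75B to Eip74EF per kb was 1.20, 2.13 and 2.04 in control and 1.63, 1.74 and 2.38 in Sox21a EBs. These ranges overlapped, so that the data do not separate the size of the difference in the 2 early genes.

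br, which encodes the Broad factors, differed from the other early genes in both level and direction. It lies on the X chromosome (1575132 to 1664869, plus strand) with 16 annotated transcripts, of which the table holds br-RA. Its values were 135.5, 93.8 and 54.8 in control and 154, 149 and 197.7 in Sox21a EBs. All Sox21a values were above the controls, the highest control being replicate 1. The means were 94.7 ± 40.3 and 166.9 ± 26.8, with a log2 fold change of 0.89 (SE 0.32) that missed the threshold (limma adjusted p = 0.069). Of the 6 fits that left out a library, 1 called it. Without control replicate 1 the log2 fold change was 1.20 with an adjusted p of 0.015, while without control replicate 3 it was 0.55 with an adjusted p of 0.14. After rescaling it was 0.70 with an adjusted p of 0.14. Exons of br overlap Mur2B on the opposite strand.

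Control replicate 1 was the control nearest to the Sox21a mean for 5 of the 9 genes (EcR, Eip75B, br, ftz-f1 and Hr96). It differed from the mean of the other 2 controls by -0.49 for EcR, -0.87 for Eip75B and 0.91 for br on the log2 scale. For Eip74EF and Hnf4 the same differences were -0.07 and -0.06. Over all tested transcripts the 90th percentile of this absolute difference was 0.97, above each of these values. For br, controls 2 and 3 also lay apart, by 0.76. The share of all genes with control replicate 1 nearest to the Sox21a mean was not counted. The part of this library in the results was not tested beyond the fits without it.

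**Figure D2:**
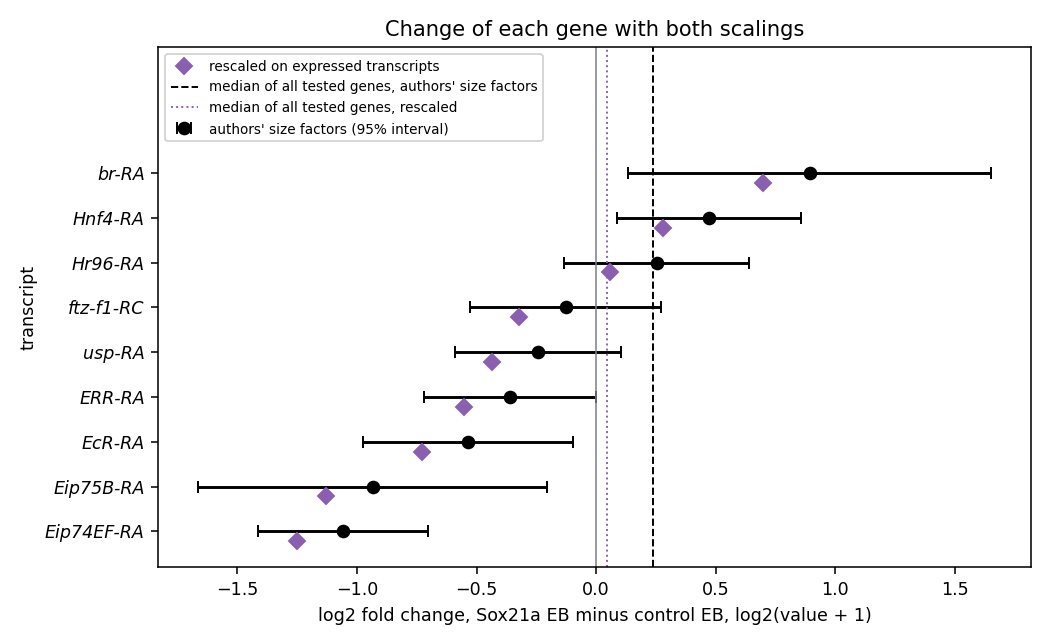
Log2 fold change, Sox21a EB minus control EB, of log2(value + 1) for the 9 genes, with the size factors of the authors (black, 95% interval from limma) and after rescaling on expressed transcripts (purple); the vertical lines mark the medians of all tested genes. Eip74EF is at -1.06 and br at 0.89, and the rescaled values lie to the left for every gene.

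ftz-f1 was the single gene of the set with more than 1 row in the table, and all 4 of its annotated transcripts were listed. It lies on 3L (18750607 to 18801309, minus strand, 4.67 Mb from Sox21a). The row with the highest mean, ftz-f1-RC, was at 1730, 2186 and 2223 in control and 1683, 1883 and 2033 in Sox21a EBs. These groups overlapped, and the log2 fold change of -0.13 (SE 0.17) had a limma adjusted p of 0.58 and a 95% interval from -0.53 to 0.27. ftz-f1-RD, which differs from RC by 150 bases of its own, was at 1779 ± 256 and 1638 ± 176.

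The other 2 rows had groups that did not overlap, in opposite directions. ftz-f1-RB, which starts at the most upstream promoter, 35.6 kb before RC and RD, and has 2521 bases in no other ftz-f1 transcript, was at 1308, 1756 and 1804 in control and 1287, 1271 and 1290 in Sox21a EBs. ftz-f1-RA, the shortest, which has no base of its own, was at 280.3, 347.2 and 357.9 in control and 426, 403 and 397.4 in Sox21a EBs. The log2 fold changes were -0.32 for RB (limma adjusted p = 0.18) and 0.32 for RA (adjusted p = 0.15), and neither passed the threshold. Without control replicate 1 the log2 fold change of RB was -0.47 with an adjusted p of 0.029.

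Within a library, the ratio of RA to RB was 0.214, 0.198 and 0.198 in control and 0.331, 0.317 and 0.308 in Sox21a EBs. The lowest Sox21a ratio was thus well above the highest control ratio, and the mean ratio was 1.57 times as high in Sox21a EBs (0.319 ± 0.011 against 0.203 ± 0.009). The ratio of RA to RC went from 0.161 ± 0.002 to 0.221 ± 0.030, also without overlap. Of the 6 pairs of rows, 4 had ratios that did not overlap between groups, all those of RA and that of RB to RD, where the highest Sox21a ratio and the lowest control ratio were both 0.882. Over all genes with several tested rows, 31.6% of row pairs had ratios that did not overlap. The rows share exons, so a read can be part of several rows and the ratios are not independent, and an exact permutation test of 3 against 3 cannot give a two-sided p below 0.1. An annotated noncoding gene, lncRNA:CR45939, overlaps ftz-f1 exons on the same strand.

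**Figure D3:**
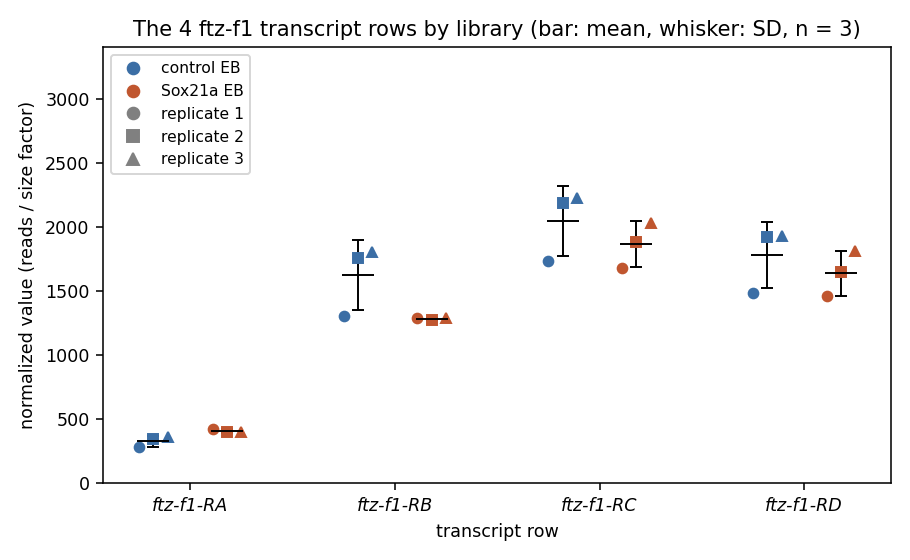
Normalized values (reads divided by the size factor, linear axis from 0) of the 4 ftz-f1 transcript rows in each library, control EB in blue and Sox21a EB in orange, with the mean (bar) and SD (whisker, n = 3). The RA values lie higher in Sox21a EBs (397.4 to 426) than in control EBs (280.3 to 357.9), while those of RB lie lower and those of RC and RD overlap.

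Hnf4, a nuclear receptor that acts in lipid catabolism and in the midgut, lies on 2L (8687226 to 8709611, minus strand). Its values were 3915, 4533 and 3684 in control and 5212, 6354 and 5282 in Sox21a EBs. All Sox21a libraries lay above all controls. The means were 4044 ± 439 and 5616 ± 640, a log2 fold change of 0.47 (SE 0.16, limma adjusted p = 0.060), with an adjusted p of 0.042 with the replicate block. Relative to the other genes this difference was small, since 34.3% of all tested genes had a larger rise, and after rescaling the groups overlapped (log2 fold change 0.28, adjusted p = 0.28). An antisense gene, asRNA:CR44992, overlaps exons of Hnf4.

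ERR, the fly oestrogen-related receptor, lies on 3L (8183361 to 8186671, minus strand, 5.92 Mb from Sox21a). Its values were 601, 475.6 and 551.3 in control and 408, 428 and 425.9 in Sox21a EBs. The Sox21a libraries lay close together, with a coefficient of variation of 2.61%, and below every control. The log2 fold change was -0.36 (SE 0.15, limma adjusted p = 0.11), and after rescaling -0.55 with an adjusted p of 0.018. Exons of Uxs and of 2 antisense genes (asRNA:CR45869 and asRNA:CR45870) overlap ERR on the opposite strand.

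Hr96, a receptor of the sterol and fat response, lies on 3R (25025235 to 25029351, plus strand) and has 1 annotated transcript. Its values were 2021, 1569 and 1796 in control and 2125, 2333 and 1942 in Sox21a EBs. The groups overlapped, and the log2 fold change of 0.25 (SE 0.16, limma adjusted p = 0.27, 95% interval -0.14 to 0.64) was close to the median of 0.24 over all genes. After rescaling it was 0.06.

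The order of the genes by level was read per kb of transcript. In control EBs Eip75B (1485 ± 495) and Hnf4 (1223 ± 132.6) led and overlapped each other, followed by Eip74EF (823 ± 71.3). Hr96 (633 ± 79.8) and usp (624 ± 31.7) overlapped, as did ftz-f1 (346 ± 46.4) with EcR (326 ± 60.2) and EcR with ERR (256 ± 29.8), and br (11.5 ± 4.91) came last. In Sox21a EBs Hnf4 (1698 ± 193.5) led without overlap, ahead of Eip75B (764 ± 211) and Hr96 (753 ± 69.1), which overlapped. Then came usp (528 ± 44.7), Eip74EF (395 ± 30.1), ftz-f1 (316 ± 29.7), EcR (223 ± 17.0), ERR (199 ± 5.19) and br (20.3 ± 3.26), none of which overlapped its neighbour. Per kb, Eip74EF thus stood above Hr96 and usp in every control library and below both in every Sox21a library. Without the division by length it stayed above both in the Sox21a libraries. There Eip74EF was at 2172, 2440 and 2517, Hr96 at 2125, 2333 and 1942, and usp at 1199, 1398 and 1389. The order between genes therefore depends on the length of the transcript named for each, and whether reads scale with that length was not tested.

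**Figure D4:**
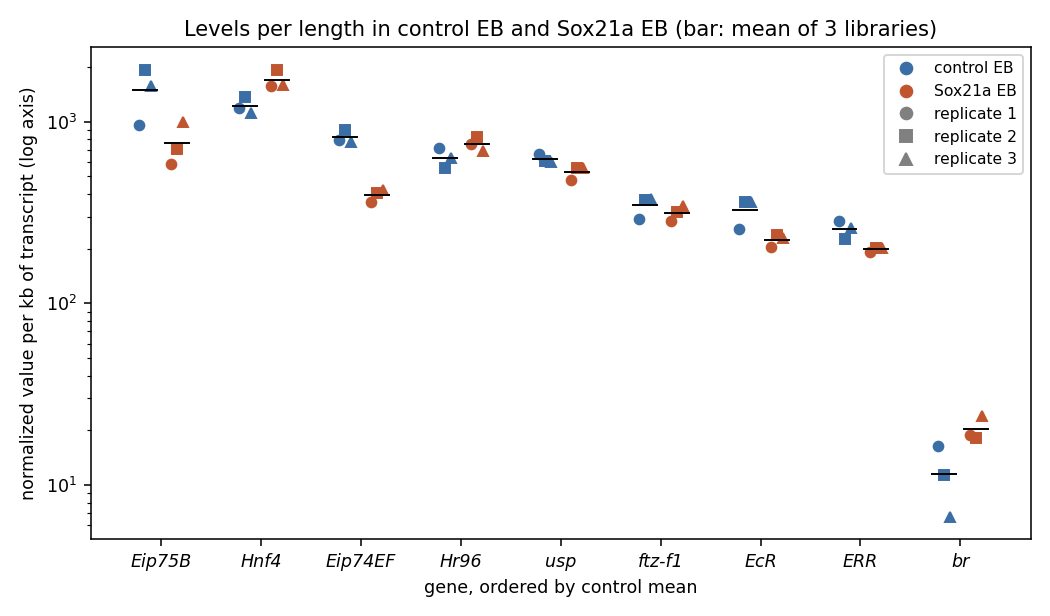
Normalized value per kb of transcript (log axis) of the 9 genes in each library, control EB in blue and Sox21a EB in orange, with a bar for the mean of 3 libraries. Hnf4 has the highest mean in Sox21a EBs (1698) and Eip75B in control EBs (1485), and br is the lowest in both groups.

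Ratios between the 9 genes within a library do not depend on how the libraries were scaled. Of the 36 pairs, 22 had per kb ratios that did not overlap between the groups, as did 51.9% of all pairs of tested genes, so that the count is not particular to this set. Eip74EF was lower relative to 7 of the 8 other genes, the exception being Eip75B. br and Hnf4 were each higher relative to 6 of 8 and lower relative to none, and Hr96 was higher relative to 4. The ratio of Eip74EF to Hnf4 was 0.670, 0.660 and 0.692 in control and 0.229, 0.211 and 0.262 in Sox21a EBs, a 2.88-fold difference of the means. The ratio of Eip75B to Hnf4 was 0.804, 1.41 and 1.41 in control and 0.373, 0.367 and 0.625 in Sox21a EBs. The ratio of EcR to Hnf4 was 0.217, 0.262 and 0.326 in control and 0.129, 0.123 and 0.143 in Sox21a EBs. The pairs share genes, no test was run on them, and these 3 ratios were chosen after their values were seen.

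The wider pathway was read from gene lists, each counted with the same limma fit. Of the 21 nuclear receptors, 14 were tested and 0 passed in either direction. At an unadjusted p under 0.05, 2 were higher (Hr4 and Hnf4) and 4 lower (EcR, Eip75B, ERR and Hr46). How many of all genes reach this unadjusted threshold was not counted. The median log2 fold change of the 14 tested receptors was -0.19, against 0.24 over all genes. In the rescaled libraries 4 were called lower (EcR, usp, Eip75B and ERR) and 0 higher, against 15.2% and 17.1% of all genes. With the replicate block 2 were lower (EcR and Eip75B) and 1 higher (Hnf4), against 1038 and 2489 of all 9571 genes. These called receptors all belong to the set described above, and neither fit called another receptor. Without control replicate 1, 4 receptors of the list were lower, and in the other 5 fits that left out a library 0 were called. Over all genes the fit without control replicate 1 called 1194 lower and 3033 higher, against 977 and 2316 with all libraries. Eip78C, the relative of Eip75B, was at 44.5, 165.2 and 180.0 in control and 193, 223 and 203.6 in Sox21a EBs (adjusted p = 0.20). Hr46, the early-late receptor also named Hr3, was at 165.2 ± 40.6 and 110.8 ± 12.5 (adjusted p = 0.096). The 7 untested receptors had a mean under 10, and 5 of them (Hr83, svp, tll, dsf and eg) were at the detection limit of 3 counts above the smallest value in all libraries.

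Of the other ecdysone-induced genes, 16 of 19 were tested, 3 rose and 2 fell, close to the shares of 24.2% and 10.2% over all genes. All 5 were called in each of the 6 fits that left out a library. Blimp-1, a zinc finger repressor that in fly prepupae delays ftz-f1, fell 3.77-fold, with values of 10181, 13813 and 12841 in control and 2733, 3438 and 3612 in Sox21a EBs (log2 fold change -1.91, limma adjusted p = 0.00046). Eip93F, a helix-turn-helix factor known from the death of larval tissues, fell 2.26-fold, from 22997 ± 4096 to 10156 ± 2140 (adjusted p = 0.0066). The groups did not overlap for either gene. ImpL2, a secreted protein that binds insulin-like peptides, rose 7.82-fold from 1536 ± 483 to 12018 ± 1737, Eip63F-1, a calcium-binding protein, rose 3.99-fold and crol, a zinc finger factor, rose 1.67-fold. The median of this list was 0.13. E23, an ABC transporter gene, was at 507 ± 108 and 340 ± 55.9 (adjusted p = 0.080) and was called lower with the replicate block (adjusted p = 0.032) and after rescaling (adjusted p = 0.045). Without control replicate 1, 5 genes of the list were lower, and over all genes 1194 were lower in that fit, against 977 with all libraries. The list was put together with results of these data known.

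Among 12 genes of ecdysone synthesis, uptake and breakdown, 6 were tested. Oatp74D, the ecdysone importer, rose 1.95-fold, with values of 120.0, 199.8 and 183.1 in control and 315, 358 and 307.9 in Sox21a EBs (limma adjusted p = 0.014). dib, a cytochrome P450 of the ecdysone synthesis pathway, fell 3.14-fold, from 320 ± 121.6 to 102.0 ± 23.5 (adjusted p = 0.012). Both had groups that did not overlap. The call of Oatp74D was lost without Sox21a replicate 2 (adjusted p = 0.054). The other 4 tested genes were not called, although Npc1a, a sterol transporter, was called higher with the replicate block (adjusted p = 0.046).

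Of the receptor cofactors, 9 of the 10 listed genes had a row, and 3 fell while 0 rose (0 also at an unadjusted p under 0.05). Hsp83, the fly Hsp90, a chaperone of nuclear receptors, fell 2.27-fold from 127879 ± 14215 to 56380 ± 5891, bon fell 1.60-fold and Chd64 fell 1.66-fold. Over all genes the shares were 10.2% lower and 24.2% higher. Of the 6 fits that left out a library, Hsp83 was called in 6, bon in 4 and Chd64 in 2, so that without Sox21a replicate 1 or 2 only Hsp83 was lower, and without control replicate 2 or 3 only Hsp83 and bon. Without control replicate 1, 4 of these genes were lower and 2 higher, and over all genes 1194 were lower and 3033 higher in that fit. The corepressor Smr was at 5481 ± 1187 and 3477 ± 850 (adjusted p = 0.075), and passed with the replicate block (adjusted p = 0.029). The coactivator tai was at 4006 ± 805 and 3719 ± 104.

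Juvenile hormone acts beside ecdysone, and 6 of 8 genes of this list were tested. gce, which encodes a juvenile hormone receptor, fell 3.21-fold, with values of 1100, 1829 and 1579 in control and 386, 493 and 524.3 in Sox21a EBs (limma adjusted p = 0.0020). Met, the related receptor, was at 553.6 ± 87.2 and 565.3 ± 68.7 and was not called. Kr-h1, a zinc finger factor induced by juvenile hormone, rose 1.88-fold (adjusted p = 0.0056). Jheh3, an epoxide hydrolase annotated to break down the hormone, fell 12.9-fold, from 2672 ± 319 to 207.9 ± 4.50, while Jheh1 and Jheh2 were not called.

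The last 3 lists hold genes that work in fly has placed downstream of the gut receptors. Of 8 fatty acid oxidation genes listed for Hnf4, yip2, a thiolase, rose 1.51-fold, and CG12262, an acyl-CoA dehydrogenase, and Acsl fell 1.65-fold and 1.59-fold. The call of yip2 was lost after rescaling (adjusted p = 0.11). Of the 6 fits that left out a library, CG12262 was called in 3, yip2 in 2 and Acsl in 0, and none of the list was called lower without control replicate 2, Sox21a replicate 1 or Sox21a replicate 3. Of 7 sterol and fat genes listed for Hr96, 5 were tested, and the sterol-binding Npc2a and Npc2e rose 4.22-fold and 2.67-fold, while 0 fell (0 also at an unadjusted p under 0.05). Npc2a was called in all 6 fits that left out a library, and Npc2e in 4, those without control replicate 2 and without Sox21a replicate 1 being the exceptions. The lipase gene mag was at 6.21, 12.3 and 19.7 in control and 13, 61 and 27.5 in Sox21a EBs (adjusted p = 0.14). Of 12 glycolysis genes listed for ERR, 3 rose (Eno 1.70-fold, Gapdh1 1.68-fold and Pfk 1.37-fold) and 2 fell, Hex-A 1.81-fold and ImpL3, the lactate dehydrogenase, 2.18-fold. The call of Pfk was lost after rescaling (adjusted p = 0.20) and with the replicate block (adjusted p = 0.058). With 1 library left out, Hex-A and ImpL3 were called in all 6 fits, Gapdh1 in 5, Eno in 3 and Pfk in 1. None of the list was called higher without Sox21a replicate 2, and 1 gene was without control replicate 2 or Sox21a replicate 3. These lists are short, and their counts are given only as a description beside the 24.2% of all genes called higher and 10.2% called lower.

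**Figure D5:**
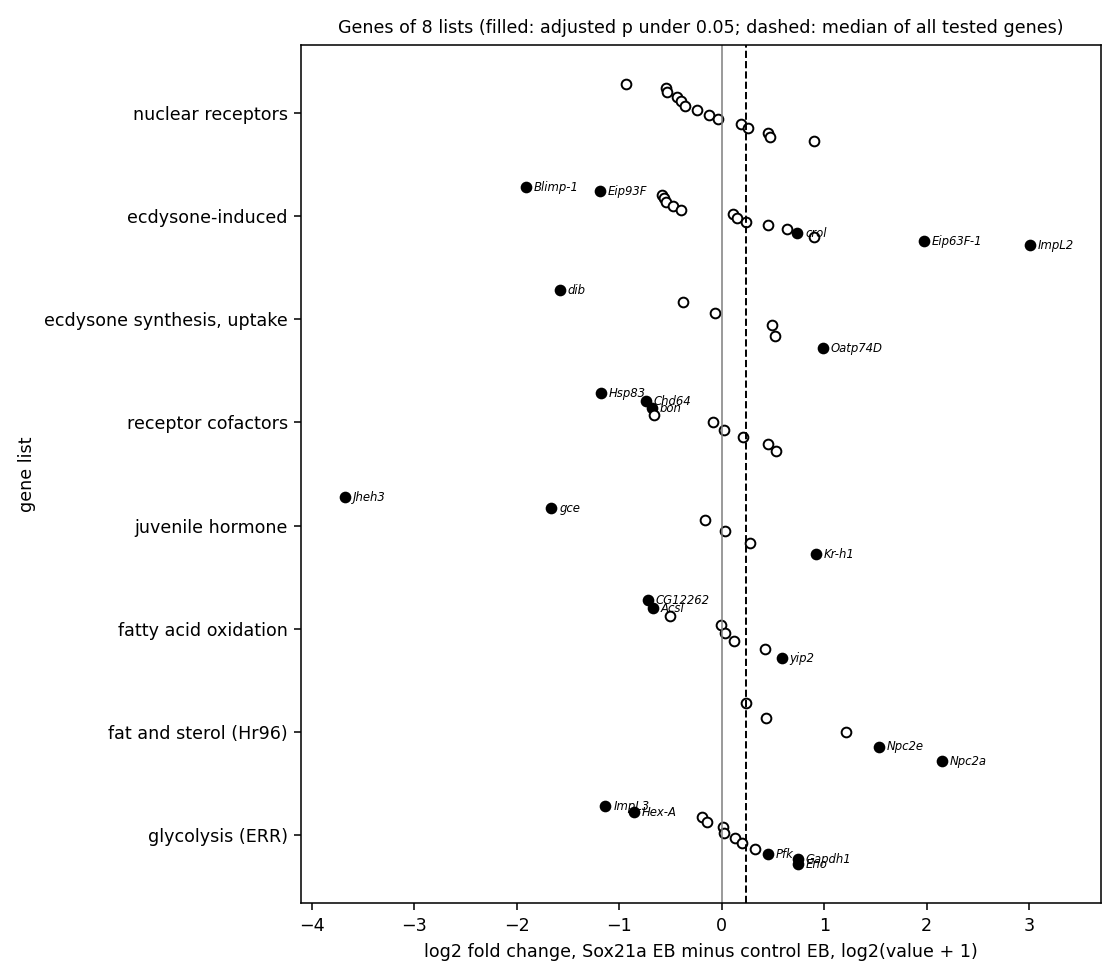
Log2 fold change, Sox21a EB minus control EB, of log2(value + 1) for each tested gene of 8 lists (filled circles: limma adjusted p under 0.05, open circles: not called; dashed line: median of all tested genes, 0.24). No nuclear receptor is filled, and ImpL2 on the right and Jheh3 (-3.67) on the left are the called genes farthest from 0.

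Markers of progenitors, to which the sorted EBs belong, and of other cell types were summed in each library. Of all genes, 10.2% were called lower and 24.2% higher in Sox21a EBs. The summed level of 10 progenitor markers was 76886 to 98529 in control and 39610 to 49494 in Sox21a EBs, with 3 of 9 tested genes lower, esg among them. The paper describes the expression of esg, shown with an esg>GFP reporter, as unaffected in Sox21a flies. The summed level of 10 enterocyte markers was 40564 to 71976 and 19306 to 23184, with 7 of 9 lower. That of 10 enteroendocrine markers was 785 to 1229 and 2265 to 5955, with 2 of 7 higher and 1, pros, lower. That of 5 tracheal markers was 35.2 to 52.5 and 346 to 417, most of it from Gasp. Of the 2 higher enteroendocrine markers, CCHa2 was called in all 6 fits that left out a library and Tk in 1, while pros was called in 3. In the rescaled libraries 1 enteroendocrine marker was called higher and 1 lower. Muscle markers summed to at most 99.4 and haemocyte markers to at most 36.8 in any library. The part of these shifts in the values of the 9 genes was not tested, and in bulk libraries fewer cells of a type and less RNA per cell cannot be told apart.

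The genes most like Eip74EF across the 6 libraries, by the Pearson correlation of log2(value + 1), were Jon65Aiv (r = 0.999), CG18537 (r = 0.998), Pebp1 (r = 0.997), RpS25 (r = 0.996) and Unc-76 (r = 0.996). Jon65Aiv, a digestive serine protease, was at 19437 ± 5239 in control and 3699 ± 695 in Sox21a EBs, and the ribosomal protein gene RpS25 at 159820 ± 7358 and 123168 ± 4754. RpS25 was not called (limma adjusted p = 0.073, and 0.021 after rescaling). CG18537 was at 3, 4 and 4.92 in the Sox21a libraries, all within the detection limit. In all 5 genes, control replicate 2 was the highest library. The 6 libraries fall into the 2 groups, and 745 of 9570 genes (7.78%) had r over 0.9. Because r was taken over both groups it includes the difference between them, and likeness within a group was not tested.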

How the data were processed

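RNA of sorted EBs was selected for mRNA, linearly amplified and sequenced as paired reads. The authors mapped the reads with Bowtie2 to Drosophila genome release 6.02, counted those in exons and deposited a normalized signal, in which the reads of each transcript are divided by the size factor of the library. Every deposited signal value was a whole multiple (within 0.02) of a step of its library and none was below 2 steps, so the table was treated as normalized values and not as counts. The table also holds the authors' own fold changes and p-values, which were not used.

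Transcripts with a mean of at least 10 (11400) were tested with limma 3.58.1 (R 4.3.3, no trend) on log2(value + 1), which understates changes of low genes, with Benjamini-Hochberg adjustment over all transcripts and a threshold of 0.05. A test made for counts had been planned for recovered reads and was not run. A gene was represented by its row with the highest mean. Rescaling divided each library by its median ratio over transcripts with a mean of at least 100. Same-numbered replicates deviated together only weakly (correlations of 0.171, 0.129 and 0.124 for numbers 1, 2 and 3). Differently numbered pairs gave -0.184 to 0.051. The deviations were taken from the mean of each group of 3, so these correlations are not independent. The number was also fitted as a block. Replicates are labelled as separate samples. The fit was also run on simulated independent counts with a fixed dispersion, no shift between the groups and no replicate pairing. These settings differ from the data, so the simulation does not measure the error of the fit here. Positions, lengths and overlaps come from Ensembl release 115 of the same genome release. br was matched by symbol, since the identifiers differ.

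The 9 genes and the lists were chosen with earlier results of these data known. Named were the 9 genes, every called gene of the hormone, cofactor and receptor lists, the 2 largest changes in each direction of the other lists, the genes behind counts of 5 or fewer, and the 5 genes most like Eip74EF. Pfk, E23, Npc1a, Smr, tai, Met, Jheh1, Jheh2, mag, Eip78C and Hr46 were added after their values were seen. Alternatives were other pseudocounts (0.1 and 10), no filter, a limma trend, subtraction of the smallest value, summed rows, a stricter threshold and each library left out.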

Additional observations from a re-analysis of the deposited data

How the results depend on the processing

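Eip74EF was lower and past the threshold of 0.05 under every alternative run, and no log2 fold change of the 9 genes changed its sign. The count of genes higher, 2316, was 1113 at an adjusted p under 0.01, 1212 with a change of at least 2-fold and 1398 to 3033 with 1 library left out. The count of genes lower, 977, was 466, 572 and 630 to 1194 in the same fits, and 1477 with the rescaling and the replicate block together. The counts of all genes higher and lower were 2473 and 1037 with a pseudocount of 10. They were 2489 and 1038 with the replicate block, and 2637 and 1117 with a limma trend. In the fit without control replicate 1 they were 3033 and 1194. Of the 9 genes, 0 were called higher, and 1 with a pseudocount of 10, 1 with the replicate block, 2 with a limma trend and 0 to 1 with 1 library left out. Called lower was 1, and 2 with a pseudocount of 10, 3 with the replicate block, 5 after rescaling, 4 with the rescaling and the block together, 3 with a limma trend and 1 to 3 with 1 library left out, where the 3 came without control replicate 1. The cause of these shifts was not tested. With the size factors of the authors, the replicate block changed the calls of EcR, Eip75B and Hnf4 and of no other of the 9 genes, and in the rescaled libraries it ended that of usp.

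The planned tests for counts were not run, because the table was not treated as counts. With 3 libraries a group, the intervals of EcR, Hnf4, ERR and br end close to 0. Values near the floor of 2 steps, such as those of the untested receptors, cannot be compared at this depth.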
